A study of Mus musculus with 2 samples.

Results

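The noncoding RNAs Malat1, Neat1, Gas5, Snhg1, Snhg3, Snhg6, Snhg12, Rn7sk, Rmrp and Rpph1 act in the nucleus or form the RNA part of ribonucleoprotein particles, and they were measured in total RNA of the mouse embryonic face. They were taken as a list of 10 gene symbols and matched by Ensembl identifier. Of these, 9 were found among the 43346 Ensembl genes of both libraries, and the identifier of Snhg1 was not matched, so that its level was not analysed here. The tissue was embryonic facial prominence of strain B6NCrl at embryonic day 14.5, and the series has 1 group of 2 biological replicates and no second condition. Each sample is labelled as the face of 1 pup, with another collection day for each, while the sex label calls the tissue pooled from males and females. Libraries were made from 10.0 ng of mirVana-extracted RNA by a SMART-seq protocol, with a labelled RNA size range over 200 and added spike-in RNAs. SMART-seq commonly primes on poly(A) tails, and the primer used for these libraries is not given in the sources used here.

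Replicate 2 held 37738872 expected counts, the estimated reads per gene, and replicate 1 held 30919488. Spike-ins took 5.43% of them in replicate 2 and 3.22% in replicate 1. All 11 marker genes checked for facial mesenchyme, cartilage, bone, muscle, epithelium, nerve, vessel and blood reached 1 TPM in both libraries, and the lowest value was 30.5 TPM, for Dlx5. TPM is the relative transcript abundance after division by effective length. With 2 samples an exact two-sided sign permutation cannot give a p under 0.5, so the libraries are described and not tested. Bulk RNA cannot tell fewer expressing cells from less RNA per cell.

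Malat1 is a long nuclear RNA that gathers in nuclear speckles, the stores of splicing factors, and Neat1 is the scaffold of paraspeckles, bodies that hold RNA-binding proteins and RNA. Gas5 and the Snhg genes are small nucleolar RNA (snoRNA) hosts: their spliced exons encode no conserved protein, and their introns carry the snoRNAs that guide the chemical modification and cleavage of ribosomal RNA. Rn7sk, Rmrp and Rpph1 are short RNAs made by RNA polymerase III. Rn7sk holds the transcription elongation factor P-TEFb in an inactive particle, Rmrp is the RNA of RNase MRP, which acts in ribosomal RNA processing, and Rpph1 is the RNA of RNase P, which trims the leader of tRNA precursors.

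All 9 measured RNAs reached 1 TPM in both libraries, as did 34.9% of all Ensembl genes. Their levels spanned from 4.37 TPM for Neat1 to 2355 TPM for Malat1 in replicate 2, and from 3.73 to 2351 TPM in replicate 1. They summed to 3774 TPM in replicate 2, against 3728 in replicate 1, and their share of all counts was 0.115% in replicate 2, against 0.107% in replicate 1. Malat1 gave 65.4% of the members' counts in replicate 2 and 65.3% in replicate 1. By mean TPM ± SD (n = 2 throughout) the order was Malat1 at 2353 ± 3.14, Gas5 at 616 ± 11.3, Rn7sk at 440.3 ± 43.2, Snhg6 at 99.1 ± 5.11, Rmrp at 87.5 ± 8.37, Rpph1 at 83.3 ± 0.0566, Snhg3 at 46.4 ± 5.23, Snhg12 at 21.1 ± 1.61 and Neat1 at 4.05 ± 0.453 TPM. Of neighbours in this order, the values of Rmrp and Rpph1 overlapped between the libraries. Snhg6 and Rmrp were 2.00 TPM apart at their nearest values, less than the counting intervals of either. The other neighbours were separated by 15.6 TPM or more.

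**Figure D1:**
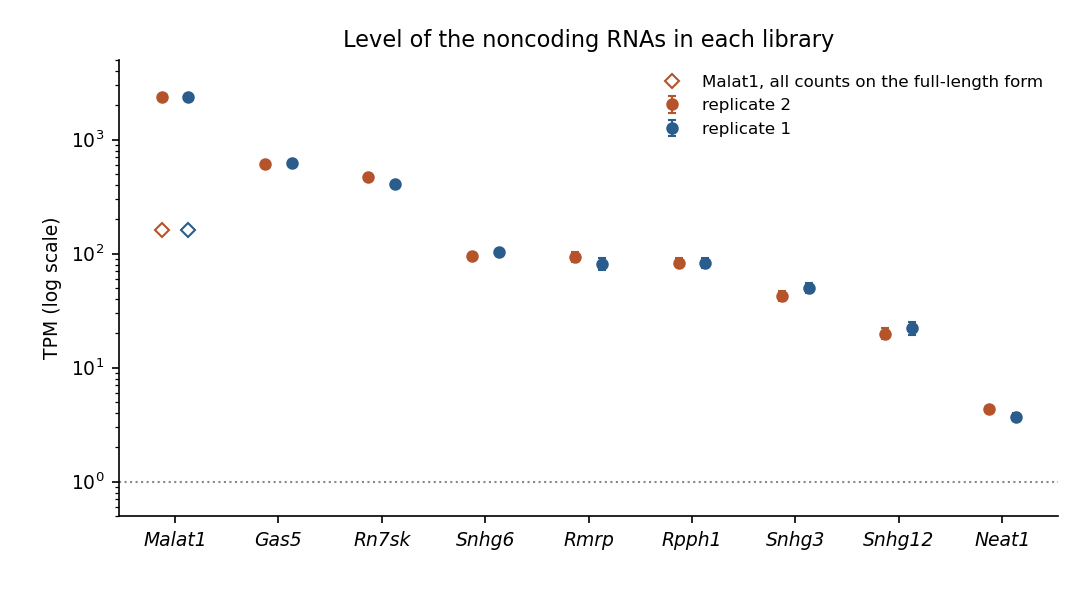
TPM of the 9 measured RNAs (log scale) in replicate 2 and replicate 1, as filled points with 95% exact Poisson intervals for counting error, beside open diamonds for Malat1 with all of its counts assigned to the full-length form. Malat1 stands at 2355 and 2351 TPM as deposited and at 162 and 159.8 TPM by the diamonds, and Neat1 is the lowest, above the dotted line at 1 TPM.

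Among the nuclear long noncoding RNAs, Malat1 (chromosome 19, 5795690 to 5802672, minus strand, mm10) had 2355 TPM in replicate 2, against 2351 in replicate 1. It stood in place 28 in replicate 2 and in place 27 in replicate 1 among Ensembl genes by TPM, but in place 105 in replicate 2 and place 115 in replicate 1 by expected count. The level in TPM rested on a short annotated form at the 5′ end. Malat1-203, a spliced model of 485 bases in 2 exons, took 98.64% of the gene's TPM in replicate 2 and 98.7% in replicate 1, with 22851 and 17660 counts. The full-length unspliced form Malat1-201, of 6983 bases, had 31.3 TPM in replicate 2, against 29.7 in replicate 1, from 5495 and 4026 counts. The short model therefore held 80.6% of the Malat1 counts in replicate 2 and 81.4% in replicate 1, on a span of 756 bases that is 10.8% of the full length.

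The first exon of Malat1-203 is also the start of the full-length form, and a further gene model lies across the same bases. Gm37376 (chromosome 19, 5801941 to 5802393), a model on the opposite strand that GENCODE M21 types as awaiting experimental evidence, lies wholly inside Malat1 and covers 182 of the 485 bases of Malat1-203. It was listed at 775.49 TPM in replicate 2, against 862.62 in replicate 1, from 6996 and 6021 counts. Strand handling is not given in the sources used here, so reads of Malat1 and of Gm37376 cannot be told apart. Together the 5′ models took 84.4% of the 35353 counts of both genes in replicate 2 and 85.4% of the 27717 in replicate 1. The short forms Malat1-202 and Malat1-204, which lie at the 3′ end of the gene, had at most 1.59 counts in any library. A further short form of 656 bases that was not matched in M21 had 8.99 counts in replicate 2 and 8.86 in replicate 1. The bases where the models meet are shown with the last 156 bases of exon 1, which lie inside Gm37376, in lower case and exon 2 in capitals, from GENCODE M21 (mm10, minus strand, chr19:5801916-5802393 with the intron of 271 bases removed).
Malat1-203: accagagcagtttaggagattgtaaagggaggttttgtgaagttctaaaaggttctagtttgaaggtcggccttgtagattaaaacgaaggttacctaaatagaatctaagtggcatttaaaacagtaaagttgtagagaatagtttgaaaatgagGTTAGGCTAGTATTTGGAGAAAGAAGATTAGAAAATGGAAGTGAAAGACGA
Assigned to the full-length form alone, all Malat1 counts gave 162 TPM in replicate 2, against 159.8 in replicate 1, a mean of 161 ± 1.56 TPM. The deposited level was 14.6 times that value in replicate 2 and 14.7 times in replicate 1. At 161 TPM Malat1 would stand in place 899 among Ensembl genes by mean TPM and below Gas5 and Rn7sk, so its first place among these RNAs depends on the form to which the 5′ reads are assigned. With the counts of Gm37376 added, the full-length level was 202 TPM in replicate 2, against 204 in replicate 1. Which form the 5′ reads came from was not tested.

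**Figure D2:**
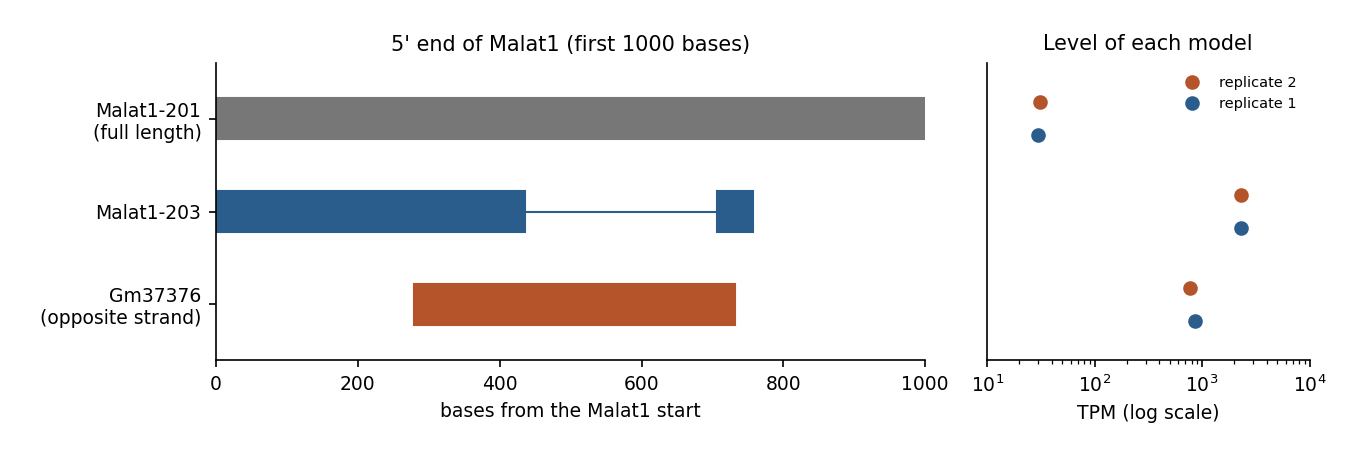
Left, the annotated models over the first 1000 bases of Malat1, with boxes for exons and a line for the intron, by distance from the Malat1 start. Right, the TPM of each model (log scale) in replicate 2 and replicate 1, where Malat1-203 stands at 2323 and 2320 TPM, Gm37376 at 775.49 and 862.62 TPM and the full-length form at 31.3 and 29.7 TPM.

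Neat1 (chromosome 19, 5824708 to 5845478, minus strand) had 4.37 TPM in replicate 2, against 3.73 in replicate 1. Its counts were 1328 in replicate 2 and 761 in replicate 1, which put it in places 6084 and 7808 by count against places 11742 and 12390 by TPM. The long form Neat1-201, of 20771 bases, is the one that builds paraspeckles. It had 2.22 TPM in replicate 2, against 1.56 in replicate 1, from 1169 and 636 counts. The short polyadenylated form Neat1-202, of 3004 bases, had 2.15 TPM in replicate 2, against 2.17 in replicate 1, from 159 and 124 counts. The long form thus took 50.83% of the TPM in replicate 2 and 41.89% in replicate 1, so that the forms changed places between the embryos, and 88.0% and 83.7% of the counts. The short form differed by little between the libraries, and the larger Neat1 level of replicate 2 lay in the long form. Scaled to the library total with spike-ins included, the long form was 1.50 times as high in replicate 2. Its 95% counting interval was 1.37 to 1.66. For the short form this ratio was 1.05, with an interval of 0.825 to 1.34. These intervals cover counting error only, here and throughout, since no molecular identifiers entered the values, and they say nothing of the spread between embryos. The short form lies within the long one, so the division of shared reads between them is an estimate. The intervals of the long and the short form leave out the error of that division. As deposited, Malat1 stood above Neat1 by 539 times in replicate 2 and 630.2 times in replicate 1 in TPM. In counts, Malat1 stood above Neat1 by 21.4 and 28.5 times. The ratios in TPM rest on the reads assigned to the short form of Malat1. With all Malat1 counts on the full-length form, its level was 162 TPM in replicate 2 and 159.8 in replicate 1. That level was still above Neat1, but the deposited Malat1 level was 14.6 times as high in replicate 2 and 14.7 times in replicate 1.

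Genes for proteins of the bodies that Malat1 and Neat1 belong to were measured as lists, by RNA level. Among all Ensembl genes 34.9% reached 1 TPM in both libraries. Of 19 paraspeckle protein genes 19 reached 1 TPM in both libraries, with a median of 41.9 TPM. Hnrnpk, which acts in Neat1 processing, was the highest at 1014 TPM in replicate 2, against 1222 in replicate 1. It was followed by Nono, a core paraspeckle protein, at 249.8 and 295.34 TPM in replicate 2 and replicate 1, and Ewsr1, at 215.41 and 283.83 TPM. Zc3h6 was the lowest at 1.03 and 1.81 TPM in replicate 2 and replicate 1. Of 16 nuclear speckle protein genes 16 did so, at a median of 165 TPM, with the splicing factors Srsf3 at 524.26 and 601.08 TPM in replicate 2 and replicate 1, Srsf2 at 509.78 and 570.16 TPM and Srsf5 at 243.53 and 318.67 TPM as the highest. The lowest speckle gene, the kinase gene Cdk11b, had 35.18 TPM in replicate 2, against 40.59 in replicate 1. Neat1, at 4.37 and 3.73 TPM in replicate 2 and replicate 1, stood below the median of the paraspeckle list in both libraries. Of 13 other nuclear long noncoding RNAs that were matched, 11 reached 1 TPM in both libraries. Meg3, a maternally expressed imprinted RNA, had 964.01 TPM in replicate 2, against 1157 in replicate 1, from 31778 and 30345 counts. Rian, of the same imprinted cluster, had 251.7 and 254 TPM in replicate 2 and replicate 1, and Tug1 had 133.9 and 153.46 TPM. As listed, Meg3 thus held more counts than Malat1 in both libraries, at a lower TPM. Both orders depend on the assignment of reads at the Malat1 5′ end. With the counts of Gm37376 added, the Malat1 locus held 35353 counts in replicate 2, above Meg3, and 27717 in replicate 1, below it. With all Malat1 counts on the full-length form, its level was 162 TPM in replicate 2 and 159.8 in replicate 1, below Meg3. Xist, which coats the inactive X chromosome of female cells, was the lowest at 0.01 TPM in each library, from 4.36 and 3.66 counts in replicate 2 and replicate 1, beside the sex label of pooled males and females.

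Of the snoRNA hosts, Gas5 (chromosome 1, 161034422 to 161038539, plus strand) was the highest, at 608.36 TPM in replicate 2, against 624.33 in replicate 1, from 8357 and 6804 counts. Snhg6 (chromosome 1, 9941959 to 9944118, minus strand) had 95.45 TPM in replicate 2, against 102.68 in replicate 1, from 1008 and 871 counts. Snhg3 (chromosome 4, 132348014 to 132353686, minus strand) had 42.67 TPM in replicate 2, against 50.06 in replicate 1, from 378 and 349 counts. Snhg12 (chromosome 4, 132308623 to 132311024, plus strand) had 19.94 TPM in replicate 2, against 22.21 in replicate 1, from 290 and 244 counts. All 4 hosts were lower in replicate 2 by TPM, as was the median gene. Gas5 stood above Snhg6 by 6.37 times in replicate 2 and 6.08 times in replicate 1, and above Snhg12 by 30.5 and 28.1 times.

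Most of the snoRNAs themselves were out of reach of these libraries. The measured hosts contain 16 annotated snoRNA genes of 60 to 205 bases with an identifier in the tables, of which 5 had an effective length above 0 and 4 had any count. In Gas5 all 9 nested snoRNAs, of 60 to 84 bases, had an effective length of 0 and were listed at 0, as was Snord87 in Snhg6. Effective length was 99 bases under the annotated length for the unspliced RNAs, and a gene shorter than that can receive no count. The sequences of Snord47 (chr1:161038082-161038158, plus strand) and Snord80 (chr1:161037601-161037681, plus strand) from Gas5, and of Snord87 (chr1:9942463-9942549, minus strand) from Snhg6, are shown because their length set this limit and because they hold the letters of the C and D boxes of their class. In Snord78 of Gas5, searched in the same way, CTGA was found and TGATGA was not. Capitals mark the first TGATGA and the last CTGA on the RNA strand, in DNA letters from GENCODE M21 (mm10).
Snord47: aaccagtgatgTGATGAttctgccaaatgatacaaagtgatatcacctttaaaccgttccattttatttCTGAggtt
Snord80: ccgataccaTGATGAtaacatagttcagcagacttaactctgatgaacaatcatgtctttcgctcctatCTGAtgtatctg
Snord87: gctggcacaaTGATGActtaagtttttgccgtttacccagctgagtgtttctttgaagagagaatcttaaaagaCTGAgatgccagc
In these the first TGATGA begins at base 12, 10 and 11, and the last CTGA at base 70, 70 and 75. Snhg3 holds the longer box H/ACA RNAs Snora73a and Snora73b, of 205 bases each, which act in the cleavage of ribosomal RNA precursors. Snora73a had 6.57 counts in replicate 2 and 0 in replicate 1, and Snora73b had 0.32 counts in replicate 2 and 11.5 in replicate 1. The copies summed to 6.89 counts in replicate 2 and 11.5 in replicate 1, against 378 and 349 for the host, and since they resemble each other their separate values are uncertain. In Snhg12 the nested Snora16a and Snora61 had no count in replicate 2 and 1.00 and 1.26 counts in replicate 1.

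Form shares of the hosts, as percent of the gene's TPM, separate spliced RNA from forms that keep snoRNA-bearing introns. Gas5 has 25 annotated forms, 5 of them typed as lincRNA and 20 as retained introns. The lincRNA forms Gas5-210 and Gas5-224 led with 39.96% and 27.1% in replicate 2, and 39.12% and 25.33% in replicate 1, or 67.1% and 64.4% together. Retained-intron forms took 32.4% of Gas5 TPM in replicate 2 and 35.0% in replicate 1. In 16 of these forms an exon covers at least 1 whole snoRNA, and they took 19.3% of TPM in replicate 2 and 21.9% in replicate 1, from 2691 and 2439 counts. The form with the most, Gas5-218, keeps 6 snoRNAs in 2556 bases and had 12.0 TPM in replicate 2, against 13.1 in replicate 1. In Snhg12 Snhg12-206, with no snoRNA in an exon, took 63.61% in replicate 2 and 43.86% in replicate 1, from 164 and 97.4 counts. Snhg12 forms whose exons cover a snoRNA took 36.4% in replicate 2 and 50.3% in replicate 1. Only 3 of the 7 Snhg12 forms have the same length in the annotation of the tables and in GENCODE M21, from which the exons were read, and over the snoRNA-bearing ones among them the share was 11.4% in replicate 2 and 23.6% in replicate 1. No form of Snhg6 or Snhg3 has a whole snoRNA in an exon. Snhg3-202, at 7.87% of Snhg3 TPM in replicate 2 and 11.24% in replicate 1, begins at 132352933, inside Snora73a (132352775 to 132352979). It was not counted, since only whole snoRNAs were. Snhg6 was divided mainly among 4 forms, with Snhg6-203 first at 49.06% in replicate 2 and 37.92% in replicate 1, from 446 and 287 counts. Snhg3-204 took 82.27% of Snhg3 TPM in replicate 2 and 80.04% in replicate 1. The leading share was close between the libraries for Gas5 and Snhg3 and farther apart for Snhg6 and Snhg12.

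**Figure D3:**
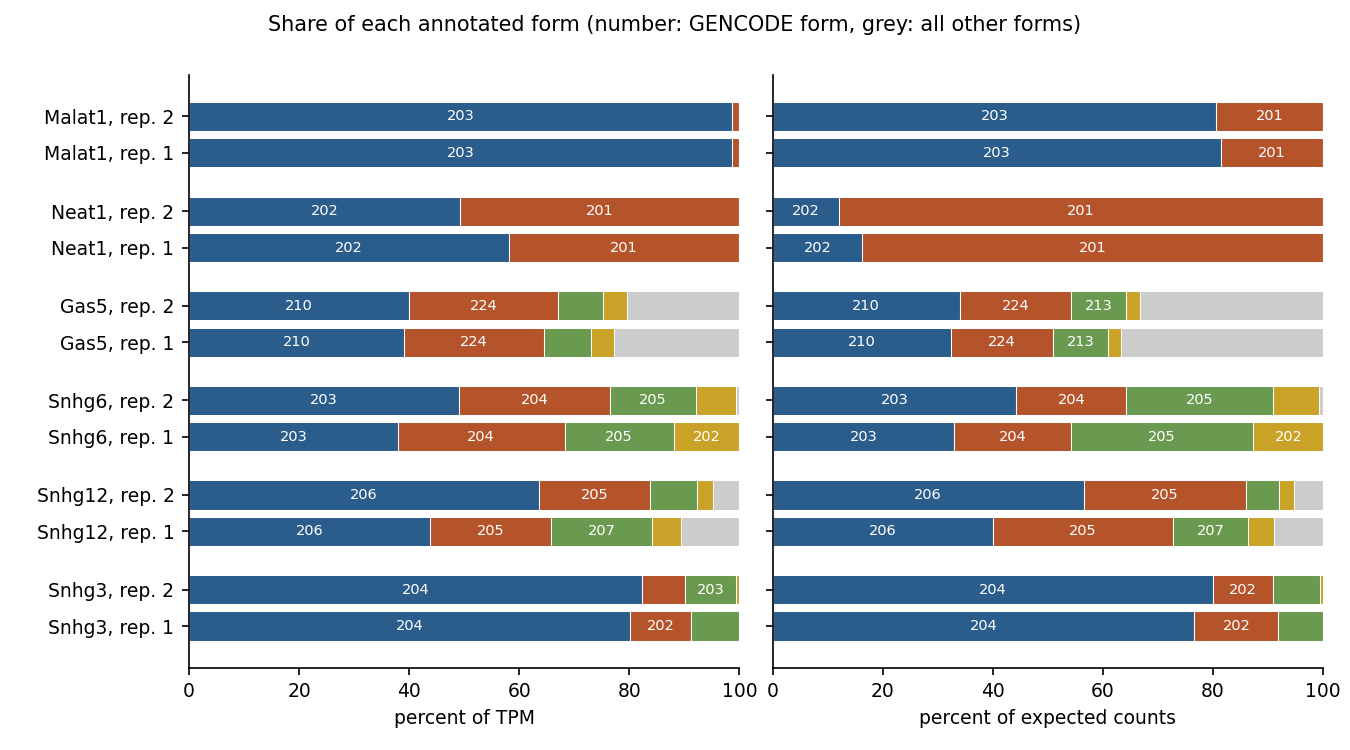
Share of each annotated form in the 6 RNAs with several forms, replicate 2 above replicate 1, as percent of TPM on the left and of expected counts on the right. Numbers in the bars are GENCODE form numbers and grey is all forms below the 4 highest, and the short forms Malat1-203 and Neat1-202 take a smaller share by counts (80.6% and 12.0% in replicate 2) than by TPM (98.64% and 49.17%).

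Annotated starts of Gas5 were read from the same forms. The 15 forms that begin between 161035067 and 161035188 took 86.4% of Gas5 TPM in replicate 2 and 85.5% in replicate 1. The 3 forms that begin upstream, between 161034422 and 161034929, took 2.37% and 3.02% in replicate 2 and replicate 1, and the 7 that begin inside the gene took 11.2% and 11.4%. RefSeq promoter windows (GRCm38.p6) were found for 5 of the 10 listed RNAs, Malat1, Gas5, Snhg1, Snhg3 and Snhg12. The letters TATA were searched from 40 to 20 bases before the start, where they read alike on both strands. A run of at least 5 pyrimidines that begins with C was searched within 10 bases of the start on the gene's own strand, as in the 5′ terminal oligopyrimidine (TOP) messages of ribosomal proteins. The windows run from 45 bases before to 25 bases after the start, with capitals for TATA and for the pyrimidine run. They are shown for both RefSeq starts of Gas5, at chr1:161035121-161035190 and chr1:161034556-161034625 (plus strand). Those of Snhg12, at chr4:132308633-132308702 (plus strand), and Snhg3, at chr4:132353662-132353731 (minus strand), are shown as well.
Gas5, main start: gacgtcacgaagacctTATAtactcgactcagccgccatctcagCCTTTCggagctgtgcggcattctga
Gas5, upstream start: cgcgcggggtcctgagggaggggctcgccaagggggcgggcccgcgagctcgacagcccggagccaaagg
Snhg12: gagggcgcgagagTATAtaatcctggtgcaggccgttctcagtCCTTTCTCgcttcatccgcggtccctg
Snhg3: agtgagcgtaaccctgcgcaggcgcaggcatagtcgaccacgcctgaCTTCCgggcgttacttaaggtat
The main Gas5 window is set on the RefSeq start at 161035166, with TATA 29 bases before it and the run CCTTTC across it. The leading form Gas5-210, at 39.96% of Gas5 TPM in replicate 2 and 39.12% in replicate 1, begins before it, at 161035067. The share of the 15 forms is thus not the share of RNA that begins at this RefSeq start. Snhg12 has TATA 32 bases before its start and CCTTTCTC across it. Snhg1, also a snoRNA host, has TATA 27 bases before its start and no pyrimidine run that begins with C. The stretch TTTTTCCTT just after its start begins with T and was not counted. The upstream Gas5 window and that of Malat1 held neither, and Snhg3 held the run CTTCC and no TATA in the searched stretch. Of all 32851 promoter windows 5.81% held TATA there, 29.0% a pyrimidine run and 1.77% both. Of 9 control TOP genes with a window, 6 held a pyrimidine run and 0 held TATA. A match is a description of letters and not of a bound factor.

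**Figure D4:**
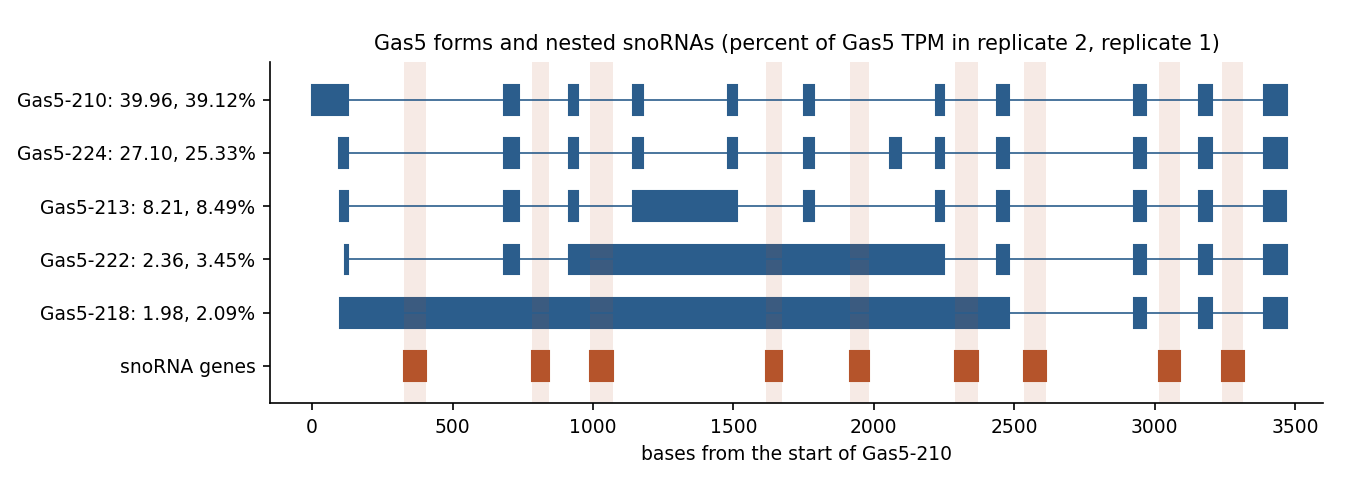
Exons (blue boxes) of 5 Gas5 forms and the 9 nested snoRNA genes (orange), by distance in bases from the start of Gas5-210, with each form's percent of Gas5 TPM in replicate 2 and then replicate 1. The 9 snoRNAs fall in introns of Gas5-210, while 6 of them lie inside an exon of Gas5-218, at 1.98% and 2.09% of TPM.

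Other snoRNA hosts and the genes for proteins of the snoRNA particles were measured as lists, by RNA level. Among all Ensembl genes 34.9% reached 1 TPM in both libraries. Of 12 other hosts that were matched, 12 reached 1 TPM in both libraries, with a median of 20.2 TPM. Snhg5 had 91.35 TPM in replicate 2, against 87.68 in replicate 1, Snhg20 had 61.12 and 67.37 TPM, and Zfas1 had 58.95 and 61.15 TPM. The lowest on the list, Mir17hg, had 4.66 and 5.22 TPM in replicate 2 and replicate 1. It is the host of a microRNA cluster, yet it is counted among the 12 hosts and in their median. Gas5 stood above all 12 of them in both libraries. Of 11 box C/D particle genes 11 reached 1 TPM, with a median of 66.0 TPM, among them Snu13 at 211.28 and 236.63 TPM in replicate 2 and replicate 1, Nop56 at 172.67 and 181.81 TPM and Nop58 at 146.33 and 159.74 TPM. Nufip1, an assembly factor, was the lowest at 9.36 and 10.56 TPM in replicate 2 and replicate 1. Of 7 box H/ACA genes 7 did so, with a median of 40.8 TPM, among them Nop10 at 154.28 and 150.69 TPM in replicate 2 and replicate 1, Nhp2 at 118.4 and 128.87 TPM and Dkc1, the pseudouridine synthase, at 79.07 and 96.79 TPM. Naf1 was the lowest at 3.37 and 2.96 TPM in replicate 2 and replicate 1. Nonsense-mediated decay removes spliced Gas5 RNA. Of 15 of its factors 15 reached 1 TPM, with a median of 24.0 TPM, from Eif4a3 at 228.89 and 263.51 TPM in replicate 2 and replicate 1, Magoh at 134.35 and 138.43 TPM and Rbm8a at 51.25 and 58.77 TPM down to Upf2 at 6.95 and 8.72 TPM. Of 11 genes of the TOP class or its control 11 reached 1 TPM, with a median of 726 TPM. Eef1a1 had 4546 TPM in replicate 2, against 5106 in replicate 1, Rpl13a 1059.6 and 1107 TPM and Tpt1 1113 and 1044 TPM, and Larp1, a protein that binds TOP messages, had 16.68 and 15.77 TPM.

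Among the RNA polymerase III products, Rn7sk (chromosome 9, 78175303 to 78175633, minus strand, 331 bases) had 470.87 TPM in replicate 2, against 409.74 in replicate 1, from 2784 and 1874 counts. Rmrp (chromosome 4, 43492788 to 43493058, minus strand, 271 bases) had 93.45 TPM in replicate 2, against 81.61 in replicate 1, from 410 and 277 counts. Rpph1 (chromosome 14, 50807449 to 50807767, minus strand, 319 bases) had 83.3 TPM in replicate 2, against 83.22 in replicate 1, from 467 and 361 counts. Rn7sk stood above Rmrp by 5.04 times in replicate 2 and 5.02 times in replicate 1 in TPM, and above Rpph1 by 5.65 and 4.92 times. The ratio of Rn7sk to Rmrp was therefore nearly alike in the embryos, while both were higher in replicate 2. Each has 1 annotated form. With the full length in place of the effective length, the levels were lower, at 371 and 321 TPM for Rn7sk, 66.7 and 57.9 TPM for Rmrp and 64.6 and 64.1 TPM for Rpph1 in replicate 2 and replicate 1. The deposited mean was 1.27, 1.41 and 1.29 times the mean by full length. Among the other members this ratio ran from 0.900 for Neat1 to 1.14 for Snhg3, with Gas5 at 1.05. The levels of these short RNAs thus depended more on the choice of length term, and which term is nearer to the true level was not tested.

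The 5′ part of Rn7sk is shown because it binds the P-TEFb inhibitor Hexim1 through repeated GATC letters (GAUC in the RNA), given in capitals; the letters read alike on both strands. It holds 3 of them in bases 1 to 300, which are printed (GENCODE M21, mm10, chr9:78175334-78175633, minus strand), and no further one in the last bases.
Rn7sk: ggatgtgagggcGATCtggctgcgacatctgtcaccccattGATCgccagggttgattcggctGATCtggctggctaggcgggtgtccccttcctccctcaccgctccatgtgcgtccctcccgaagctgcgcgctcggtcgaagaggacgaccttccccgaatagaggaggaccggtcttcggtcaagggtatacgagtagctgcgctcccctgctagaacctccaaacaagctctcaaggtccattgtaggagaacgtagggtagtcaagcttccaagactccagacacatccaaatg
The sequences of Rmrp (chr4:43492788-43493058) and Rpph1 (bases 1 to 300, chr14:50807468-50807767), both minus strand, are shown because messenger RNA genes lie across them. Capitals mark 124 of 271 Rmrp bases inside exons of Ccdc107, on the opposite strand, and 233 of 319 Rpph1 bases inside exons of Ccnb1ip1, on the same strand.
Rmrp: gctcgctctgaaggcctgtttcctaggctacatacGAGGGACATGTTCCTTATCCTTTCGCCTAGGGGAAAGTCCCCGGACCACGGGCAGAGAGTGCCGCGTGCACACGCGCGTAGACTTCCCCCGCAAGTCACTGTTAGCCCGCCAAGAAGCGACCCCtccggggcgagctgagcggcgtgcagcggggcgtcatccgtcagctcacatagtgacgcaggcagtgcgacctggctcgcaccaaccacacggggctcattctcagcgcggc
Rpph1: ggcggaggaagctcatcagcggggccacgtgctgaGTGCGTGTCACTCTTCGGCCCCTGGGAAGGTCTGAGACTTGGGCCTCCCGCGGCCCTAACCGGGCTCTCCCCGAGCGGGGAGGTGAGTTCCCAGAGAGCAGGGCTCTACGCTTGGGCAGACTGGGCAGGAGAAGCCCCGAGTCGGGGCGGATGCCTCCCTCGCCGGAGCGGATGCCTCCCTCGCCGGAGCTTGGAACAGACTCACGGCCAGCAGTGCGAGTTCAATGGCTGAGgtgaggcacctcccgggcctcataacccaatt
Ccdc107 had 51.76 TPM in replicate 2, against 52.1 in replicate 1, from 953 and 733 counts, so reads of the shared bases of Rmrp may belong to either gene. The deposited posterior SD of the Rmrp count, its spread over possible divisions of shared reads, was 0.64 in replicate 2 and 0.48 in replicate 1. The origin of reads on the shared bases was not tested. Ccnb1ip1 had 0 counts in replicate 2 and 1 in replicate 1. Parp2, a DNA repair gene that starts 74 bases from Rpph1 on the other strand, had 33.08 and 39.03 TPM in replicate 2 and replicate 1.

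Other members also have annotated neighbours, some with shared exon bases and some with none. Snhg3 overlaps Rcc1 on the same strand and shares 135 exon bases with it, and Rcc1 had 30.71 TPM in replicate 2, against 37.72 in replicate 1. On the opposite strand Gm17300 shares 705 exon bases with Snhg3 and had 2.67 and 3.79 TPM in replicate 2 and replicate 1, from 97.1 and 106.8 counts beside the 378 and 349 of Snhg3. Mcmdc2 shares 127 exon bases with Snhg6 and had 0.73 and 0.94 TPM in replicate 2 and replicate 1. Zbtb37 overlaps the upstream part of Gas5 by 428 bases with no shared exon base, and had 5.71 and 8.21 TPM in replicate 2 and replicate 1. C920006O11Rik, which starts 281 bases from Rn7sk on the other strand, had 3.5 and 3.96 TPM in replicate 2 and replicate 1, and Frmd8os, 145 bases from Neat1, had 0 and 0.14 TPM. Slc3a2, which starts 106 bases from the annotated Snhg1, had 44.77 and 51.19 TPM in replicate 2 and replicate 1. Annotated short genes that match part of a member at 90% identity over 80% of the shorter sequence numbered 57 for Malat1, 33 for Neat1 and 4 for Snhg12, and 0 for the other 6. They held 8.14 counts in replicate 2 and 2.89 in replicate 1 for the Malat1 matches, and 7.14 and 1.89 for those of Neat1. Every gene with counts among these Neat1 matches was also a Malat1 match, so the sums share these counts. At 80% identity over 50%, Neat1 had 105 matches with 60.1 counts in replicate 2 and 30.9 in replicate 1, beside its own 1328 and 761, and Gm4707 held 50 and 24 of these. At that limit Malat1 had 99 matches with 10.1 and 6.89 counts in replicate 2 and replicate 1, and Rn7sk had 40 matches with 5.16 counts in replicate 2 and 11.6 in replicate 1, beside its own 2784 and 1874.

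Partner genes of these particles were measured by RNA level, and protein was not measured. The share of all Ensembl genes at 1 TPM or more in both libraries was 34.9%. Of 14 genes of the 7SK particle and P-TEFb 14 reached 1 TPM in both libraries, with a median of 42.1 TPM. The RNA-binding proteins Hnrnpa1, at 409.11 TPM in replicate 2, against 508.24 in replicate 1, Hnrnpa2b1, at 361.72 and 416.43 TPM, and Hnrnpr, at 91.85 and 122.59 TPM, led the list. The lowest were Hexim1, at 6.78 and 5.91 TPM in replicate 2 and replicate 1, and Hexim2, at 5.13 and 7.63 TPM, which changed places between the libraries. Of 11 RNase P and MRP protein genes 10 reached 1 TPM, with a median of 40.0 TPM, among them Rpp21 at 73.05 and 83.7 TPM in replicate 2 and replicate 1, Pop5 at 72.97 and 67.21 TPM and Pop4 at 59.02 and 67.95 TPM. Rpp25 was the exception, at 0.66 and 1.14 TPM in replicate 2 and replicate 1. Of 21 genes for RNA polymerase III and its promoter factors 21 reached 1 TPM, with a median of 17.3 TPM. Ssb, the La protein that binds the ends of these RNAs, had 223.31 and 230.28 TPM in replicate 2 and replicate 1, Polr3k 41.41 and 47.41 TPM and Snapc2 33.91 and 41.25 TPM, and the lowest were Polr3a, the largest subunit, at 7.3 and 7.85 TPM, and Polr3gl, at 6.78 and 8.88 TPM, which also changed places between the libraries.

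Of the other short structural RNAs, 7SL held nearly all counts. Of 31 that were matched, 14 have 200 bases or more and 17 are shorter. The longer ones summed to 103863 counts in replicate 2 and 61483 in replicate 1, and the shorter ones to 46.1 and 30.2 counts. The first sum was mostly 7SL, the RNA of the signal recognition particle, whose copies Rn7s1 and Rn7s2 of 300 bases had 51862 and 51868 counts in replicate 2 and 30680 each in replicate 1. Their nearly equal counts cannot be separated, and together they had 20251 TPM in replicate 2, against 15482 in replicate 1. Without 7SL the other 12 of the longer ones summed to 134 counts in replicate 2 and 122 in replicate 1, and length did not order them: the telomerase RNA Terc, of 423 bases, had 2 counts in replicate 2 and 3 in replicate 1. Snord118, the U8 snoRNA of 135 bases, had 13.08 and 7.04 TPM in replicate 2 and replicate 1 from 12.0 and 5.0 counts, and Scarna17 was listed at 0 in both. The spliceosomal Rnu1a1, of 164 bases, had 12.4 counts in replicate 2 and 8.37 in replicate 1, and Rnu2-10, of 191 bases, had 9.20 and 10.7. By count Rn7sk thus stood between 7SL and these spliceosomal RNAs, which are shorter than the labelled RNA size range of over 200. The U3 copies took the counts unequally. Rnu3b1 and Rnu3b3 had 35 counts each in replicate 2 and 0 in replicate 1, and Rnu3b2 and Rnu3b4 had 0 in replicate 2 and 38 each in replicate 1, while the 4 together had 70.0 and 76.0 counts. The U3, U1 and U2 genes were named after their values were seen.

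Between the libraries, ratios of replicate 2 over replicate 1 were taken as log2(TPM + 1), where low genes appear less changed than they are. Across 11482 genes averaging at least 5 TPM the median was -0.15, and ratios of the members are given relative to it. No member passed 2-fold in either direction, where 0.714% of those genes did. Of the 9 members 8 passed that filter on low values, all but Neat1. Rn7sk stood 0.35 above the median gene, Rmrp 0.34, Neat1 0.33, Malat1 and Rpph1 0.15, Gas5 0.11 and Snhg6 0.04. Snhg12 lay at the median gene and Snhg3 at -0.08. In size, 92.3% of genes lay nearer to the median than Rn7sk, 91.9% nearer than Rmrp and 91.3% nearer than Neat1, against 37.7% for Snhg3. A scaling that multiplies a whole library by 1 factor cannot move these values beyond the pseudocount, so only the pseudocount and the change of TPM to counts or posterior means bear on them. With expected counts scaled to the library total (CPM) Rn7sk stood at 0.35, Rmrp at 0.32, Malat1 at 0.17, Gas5 at 0.08 and Snhg3 at -0.09, while Snhg6 lay at the median gene and Snhg12 at 0.04. Neat1 moved most, to 0.57 with CPM and 0.23 with a pseudocount of 5.

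**Figure D5:**
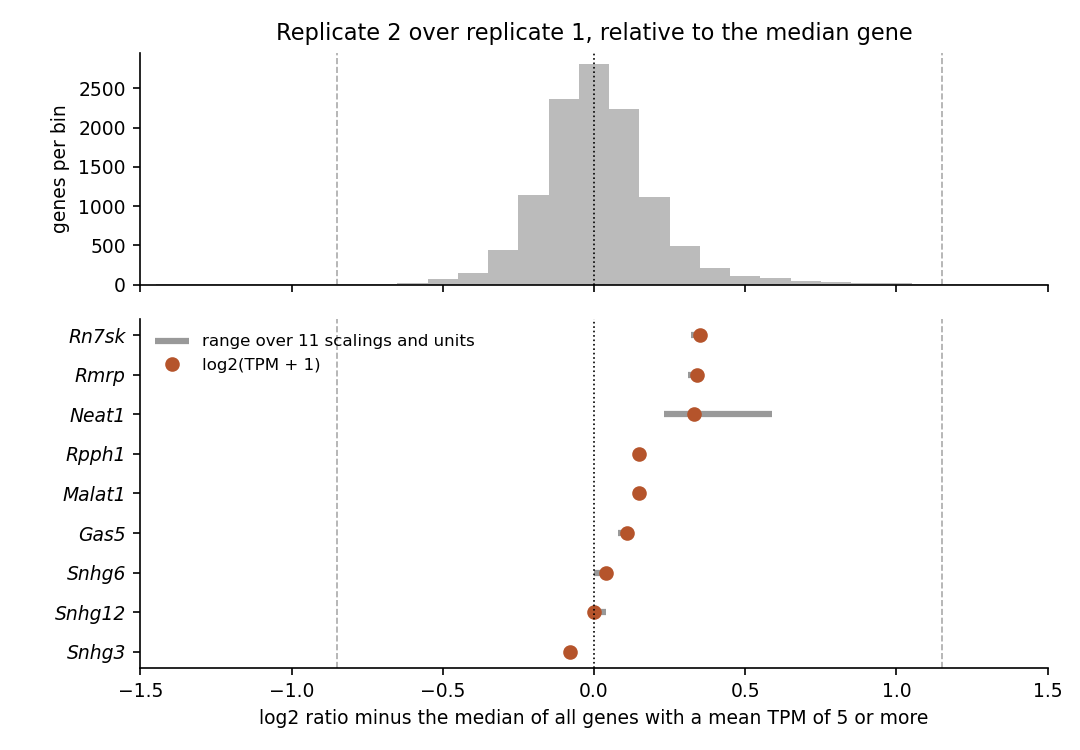
Top, distribution of the log2 ratio of replicate 2 over replicate 1 for 11482 genes, shifted to a median of 0. Bottom, the same quantity for the 9 members (points) with its range over 11 scalings and units (bars, which a rescaling of a whole library alone leaves in place), where dashed lines mark 2-fold in TPM and Rn7sk, Rmrp and Neat1 lie farthest to the right, at 0.35, 0.34 and 0.33.

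Counting error alone bounds these ratios as follows. The library total includes the spike-ins, which took 5.43% of counts in replicate 2 and 3.22% in replicate 1. Scaled to the library total, Rn7sk was 1.22 times as high in replicate 2 as in replicate 1 (95% exact conditional interval 1.15 to 1.29), Rmrp 1.21 times (1.04 to 1.42) and Neat1 1.43 times (1.31 to 1.57). Malat1 was 1.07 times as high (1.05 to 1.09). The intervals of Gas5 (0.974 to 1.04), Snhg6 (0.865 to 1.04), Snhg3 (0.765 to 1.03), Snhg12 (0.818 to 1.16) and Rpph1 (0.922 to 1.22) included 1, so a difference was not detectable at this depth with this scaling. The scaling decides part of this. With TMM, a scaling on the bulk of genes, Gas5 was 1.06 times as high (1.02 to 1.09) and the other 4 intervals still included 1. Scaled by spike-in counts, all 9 members were lower in replicate 2 with intervals under 1, among them Gas5 at 0.596 times (0.578 to 0.616) and Rn7sk at 0.721 times (0.680 to 0.765). The median gene was lower too, with a log2 ratio of -0.83 on that scaling, against a median of -0.67 for the members. Among the partner lists no gene with a mean TPM of 5 passed 2-fold except in the short structural RNAs, where 5 of 10 did, each a U3 or Y RNA with 0 counts in one library. The median ratio relative to the median gene was 0.54 for the short structural RNAs, 0.11 for other snoRNA hosts, 0.08 for the TOP class, -0.12 for paraspeckle proteins and -0.09 for RNA polymerase III factors, and between -0.08 and -0.01 for the other 7 lists. The median of the short structural RNAs is the value of Rn7s1 and Rn7s2, whose counts cannot be separated. Like Rn7sk and Rmrp, these 7SL copies stood above the median gene, by 0.54 each. The larger spike-in share of replicate 2 and the other depth of the libraries stand beside these ratios, and their part in them was not tested.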

How the data were processed

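Total RNA of facial prominence was measured in 2 libraries of 1 group, with replicate numbers from the labels. The deposited gene and transcript tables hold estimates for mm10 with the GENCODE M4 annotation, as a text deposited beside each library states; for the aligner, the quantifier's version and strand handling, the sources used here give nothing. Expected counts, deposited unscaled, estimate the reads of each gene or transcript, per the file headers. TPM is the authors' abundance scaled over all features, with 96 spike-ins included, as deposited. FPKM was deposited beside it and served as an alternative. Form shares were deposited as percent of TPM within a gene. The low-count limit of 3 counts per library ranged from 0.00987 TPM for Neat1 to 0.684 TPM for Rmrp in replicate 2, and from 0.0147 to 0.885 TPM in replicate 1.

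GENCODE M21, also on mm10, gave names, forms and positions by identifier without version, so that 42462 of 43346 genes had a symbol. Matches between sequences were found with BLAST 2.17.0. Ratios used log2(TPM + 1), a call of 2-fold and genes at a mean of 5 TPM. Exact Poisson and conditional binomial intervals were at 95%, on rounded counts. Tools were R 4.3.3, Python 3.11.15, scipy 1.17.1, pandas 2.3.3, numpy 2.4.6 and matplotlib 3.10.9, with edgeR 4.0.16 and DESeq2 1.42.0 for scaling factors alone, on rounded expected counts. The ratio step was checked on simulated counts.

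The members and the 12 partner lists of 194 symbols, 13 of them not matched and not used here, were chosen with earlier results of these data known. Text names all members, the 3 highest genes and the lowest of each list, and genes that overlap a member or start within 1000 bases of its start on the other strand; the text says where another gene is named. Alternatives were other thresholds, pseudocounts, units, scalings, filters, length terms and identity limits, and each replicate left out.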

Additional observations from a re-analysis of the deposited data

How the results depend on the processing

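The count of members at 1 TPM or more, 9 in each library, was 8 at a threshold of 5 or 10 TPM. No member passed 2-fold under any pseudocount, unit, scaling or filter tried. The median log2 ratio of the members, 0.00, was 0.14 with TMM scaling, 0.15 with DESeq2 size factors, 0.15 when centred on the median gene and -0.67 when scaled by spike-in counts, where the median of all genes was -0.83. Set against the median gene it was 0.13 with a pseudocount of 5 and 0.15 with CPM; scaling a whole library cannot move that difference. By expected counts in place of TPM, the mean share was 85.8% for the long form of Neat1 (46.4% by TPM, 41.9% to 50.8% with a replicate left out), 81.0% for the short form of Malat1 (98.7% by TPM, 98.6% to 98.7%), and 34.0% for Gas5 forms with a snoRNA (20.6% by TPM, 19.3% to 21.9%), since longer forms take more counts. The share of Snhg12 forms with a snoRNA, 43.3% (36.4% to 50.3%), was 17.5% over forms of equal length in both annotations. Sequence matches to the members numbered 94 at 90% identity over 80%, 264 at 80% over 50% and 0 at 98% over 80%. Genes that match both Malat1 and Neat1 are counted for each. Of 90 other log2 ratios of single members, 62 moved by less than their counting interval, and of 28 levels 4 moved by less than the replicate SD and 24 by more. The posterior mean TPM, the full-length level of Malat1, the full-length term in TPM and the Snhg12 forms of equal length were alternatives chosen after the data were seen. No paired analysis was possible because there is 1 group. Short RNAs under 100 bases lie beyond these libraries, and Snhg3, Snhg12 and Rmrp rest on 244 to 410 counts each.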
